A study of Mus musculus with 6 samples.

Results

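Laminins are the large cross-shaped glycoproteins of basement membranes, each assembled inside the cell from an alpha, a beta and a gamma chain. Their short arms let them polymerise into a sheet, and the globular end of the alpha chain binds integrins and dystroglycan on the cell surface. In the brain they lie mainly around blood vessels, where endothelial cells, pericytes and astrocytes contribute different chains, and at the surface under the meninges. The genes described here are Lamc1, which encodes the gamma 1 chain shared by most laminins, the beta chain genes Lamb1 and Lamb2, and the alpha chain genes Lama2, Lama4 and Lama5. The rule took all probe sets whose only gene symbol is one of these 6 genes, of 12393 genes named in this way, which gave 11 of the 22626 probe sets of the array. Lamc1 has 2 of them and the other 5 chains have 9. Lamc1 was selected on its signal difference between 2 h after a seizure and sham, and the other chains belong to the same family.

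The tissue was the paraventricular nucleus of the hypothalamus (PVN), cut by laser from frozen brain sections of C57Bl/6 mice under the microscope. One group was taken 6 h and another 2 h after 1 electroconvulsive seizure (ECS, evoked by passing a brief current through ear clips under isoflurane), and the third 2 h after sham handling without current. Each of the 3 groups has 2 Affymetrix arrays, and RNA of 2 to 3 mice was pooled for each, so precision is limited by the small number of arrays. Replicates 1 and 2 are read as the 2 runs of the experiment, which used different mice. No sham group was taken at 6 h, so the comparison at 6 h also holds 4 h of added time since handling. The labels read here state no sex and no age of the mice.

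Signals were quantile normalized, an offset of 16 was added and log2 was taken, so a probe set with no signal stands at 4. Median deposited signals were 28.2 and 35.6 at 6 h, 25.2 and 32.6 at 2 h, and 25.6 and 40.8 in sham. Replicate 1 of the 6 h group stood apart, with a mean rank correlation of 0.887 with the other arrays, against 0.906 to 0.919 for the rest, and a 3' to 5' Gapdh signal ratio of 14.1, against 6.43 to 10.5. The hormone genes that mark the PVN were bright. Oxt (oxytocin) stood at 11.49 and 11.03 at 6 h, 11.13 and 10.87 at 2 h, and 10.86 and 10.82 in sham, and Avp (vasopressin) lay between 9.55 and 10.15 in all 6 arrays.

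Laminin signals were dim. Of the 11 probe sets, 4 reached the median signal of their array in 2 or more of the 6 arrays and were tested, namely both of Lamc1, 1 of 3 of Lamb1 and the single one of Lama2. A further 2 reached the median in 1 array, namely that of Lamb2 and one of Lama5. The other 5, which include both of Lama4, stayed below it in every array. Such a signal is not shown to be above background, since detection calls were not used here. In bulk tissue, fewer cells of a type and less RNA per cell cannot be told apart. Each probe set has its own brightness, so a signal above another probe set's is not a higher level of its chain.

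**Figure D1:**
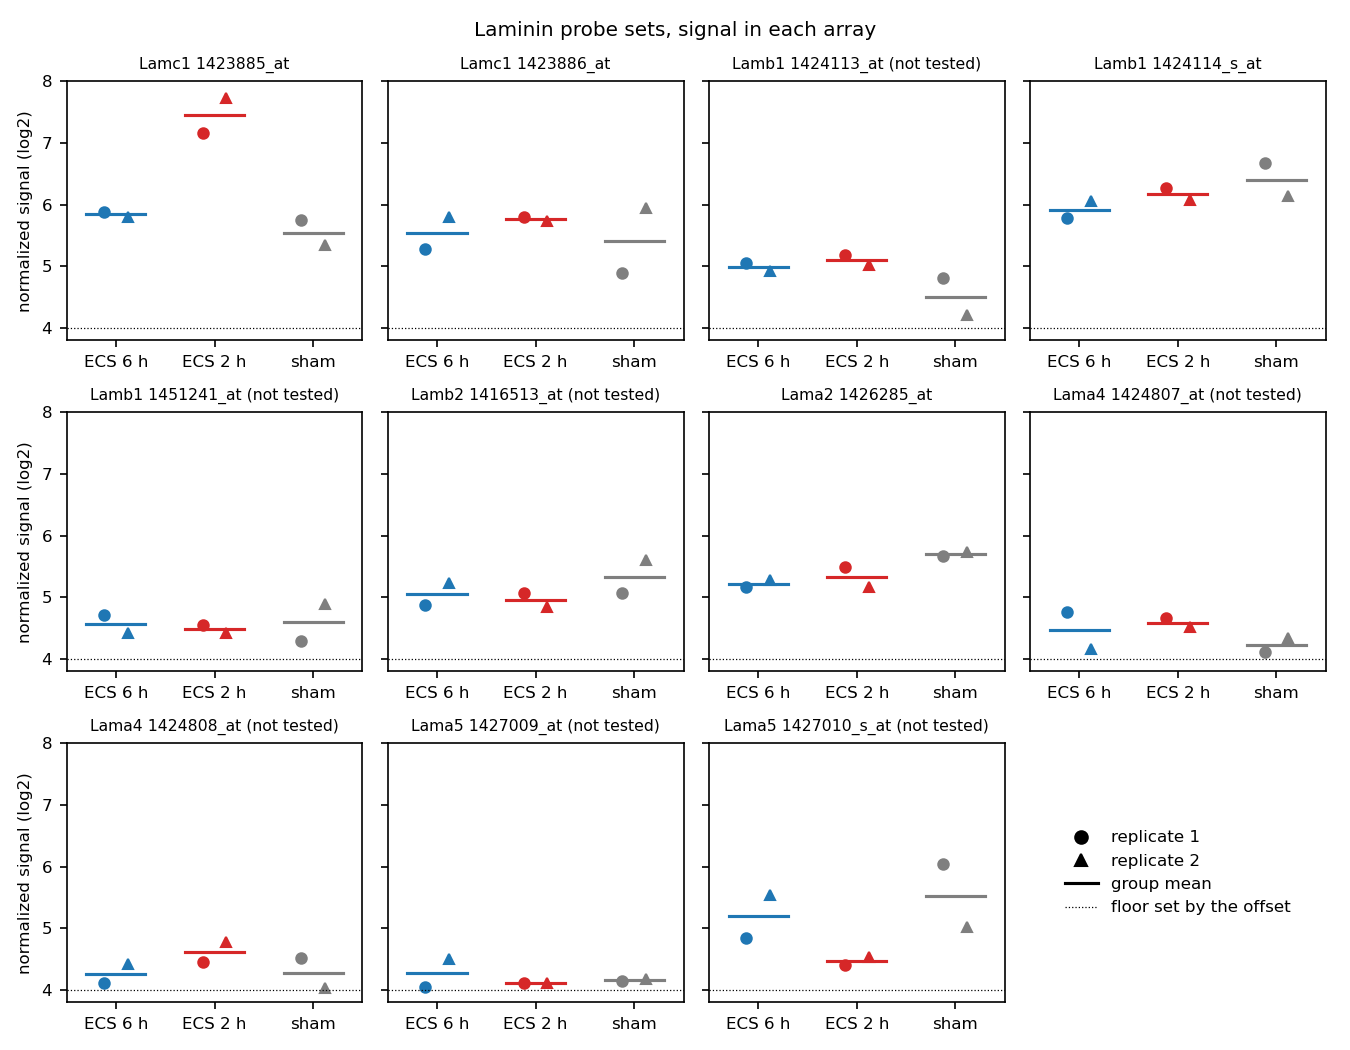
Normalized log2 signal of each laminin probe set in each array, with ECS 6 h, ECS 2 h and sham from left to right, circles for replicate 1, triangles for replicate 2 and bars for group means. The 2 h arrays of Lamc1 1423885_at, at 7.16 and 7.74, lie above its other 4 arrays, while most other panels lie close to the floor of 4.

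Lamc1 was chosen because probe set 1423885_at had one of the smallest p-values between 2 h and sham, at place 12 of 12662 tested probe sets. Its values in all 3 comparisons share arrays with that choice and are therefore given as a description, with no test. This probe set had deposited signals of 39.5 and 45.9 at 6 h, 102 and 209.6 at 2 h, and 30.6 and 31.6 in sham. On the normalized log2 scale it stood at 5.89 and 5.81 at 6 h, 7.16 and 7.74 at 2 h, and 5.75 and 5.34 in sham. Both 2 h arrays were higher than every other array, and the 6 h arrays lay just above the sham arrays without overlap. The mean log2 signals were 5.85 ± 0.053 at 6 h, 7.45 ± 0.41 at 2 h and 5.54 ± 0.29 in sham (SD, n = 2 each).

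The signal of 1423885_at at 2 h was thus 3.75 times that in sham, a log2 difference of 1.91 ± 0.40 (SE). The difference was 1.41 within replicate 1 and 2.40 within replicate 2. Since the 2 h and sham arrays did not overlap, both had to be positive, and the shared direction adds no support. At 6 h the log2 difference from sham was 0.31 ± 0.40, with 0.14 within replicate 1 and 0.48 within replicate 2. The 6 h mean lay 1.60 ± 0.40 below the 2 h mean on the log2 scale (6 h minus 2 h = -1.60). Of all tested probe sets, 1.58% were at least 2-fold higher at 2 h than in sham without overlap of the arrays, and this one is among them by the way it was chosen. It reached the median in 5 of the 6 arrays, so its place among the tested probe sets did not rest on the 2 h arrays.

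The size of the 2 h difference depended on the offset. With an offset of 1 in place of 16 the log2 difference was 2.34, and with 64 it was 1.24. Leaving out single arrays gave values from 1.61 (without ECS 2 h replicate 2) to 2.21 (without ECS 2 h replicate 1). The 2 h arrays lay above the sham arrays without overlap, so the positive sign was fixed beforehand and adds no support.

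The second Lamc1 probe set, 1423886_at, did not show this pattern, although the array annotation derives both probe sets from the same transcript record. Its deposited signals were 20.2 and 45.8 at 6 h, 32.2 and 38.6 at 2 h, and 11.8 and 58.8 in sham. Normalized, it stood at 5.28 and 5.81 at 6 h, 5.80 and 5.74 at 2 h, and 4.89 and 5.95 in sham. The sham arrays held both the lowest and the highest value of this probe set, so the groups overlapped in every comparison. The log2 difference between 2 h and sham was 0.35 ± 0.49, with 0.91 within replicate 1 and -0.21 within replicate 2. It was -0.18 without sham replicate 1 and 0.86 without sham replicate 2, so single sham arrays set its sign. At 6 h the difference from sham was 0.12 ± 0.49, or -0.41 without sham replicate 1 and 0.64 without sham replicate 2.

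Within each array, 1423885_at over 1423886_at gave a log2 ratio of 0.61 and 0.0024 at 6 h, 1.36 and 2.00 at 2 h, and 0.86 and -0.61 in sham. The 2 h arrays had the highest ratios, which the choice of 1423885_at favours, so the ratios are given as a description only. The large 2 h difference described for Lamc1 is that of 1 of its 2 probe sets. The stretch of the transcript that each one reads was not used here.

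**Figure D2:**
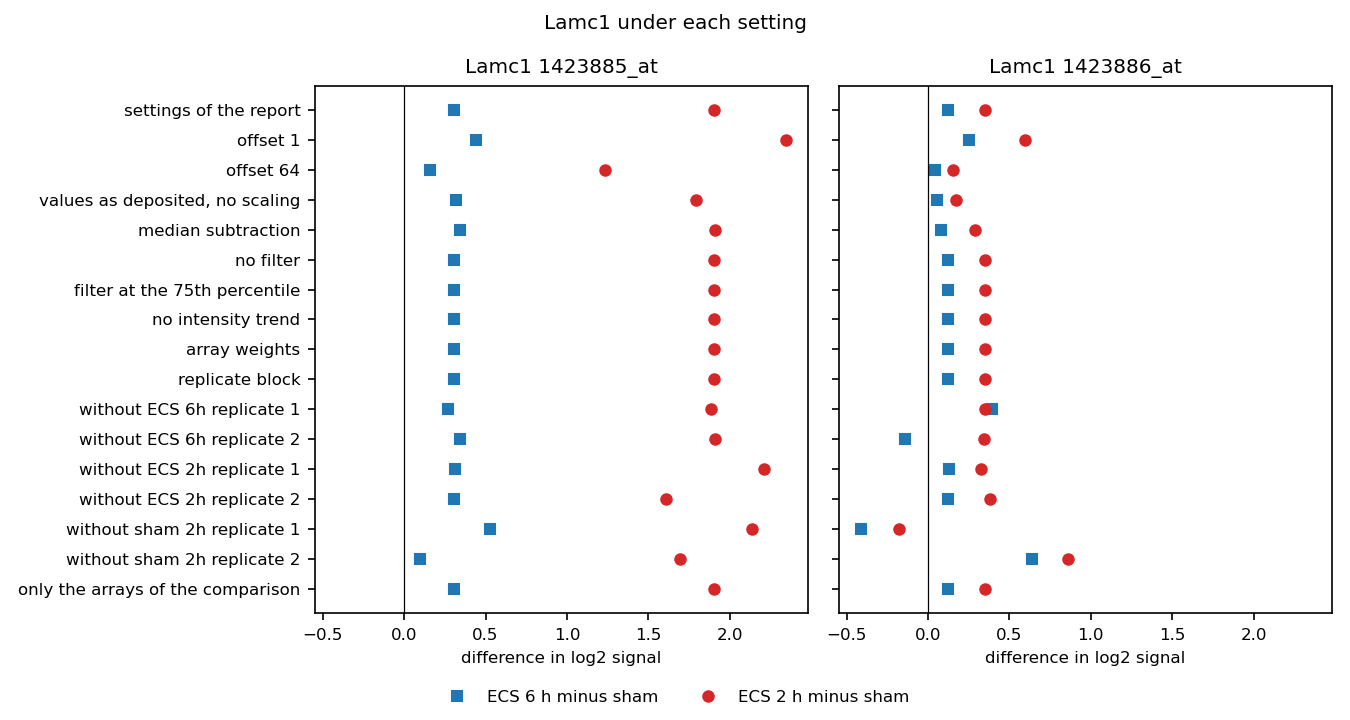
Difference in log2 signal from sham for both Lamc1 probe sets, with blue squares for ECS 6 h minus sham and red circles for ECS 2 h minus sham, under the settings of the report and each alternative. For 1423885_at the 2 h difference stays between 1.24 and 2.34, while for 1423886_at it runs from -0.18 to 0.86.

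The beta chains had no shared direction. Lamb1, whose product is the beta partner of Lamc1's in many laminins, has 3 probe sets from one transcript record. The brightest, 1424114_s_at, was above the median in all 6 arrays and is the laminin measurement least affected by the floor. Its normalized signal was 5.78 and 6.06 at 6 h, 6.28 and 6.08 at 2 h, and 6.67 and 6.14 in sham. Both 6 h arrays lay below both 2 h arrays and both sham arrays, by margins smaller than the spread in sham. The log2 difference of 6 h from sham was -0.48 ± 0.40 (limma adjusted p = 1.00, with a 95% interval of -1.36 to 0.39). It was -0.89 within replicate 1, which holds the 6 h array that stood apart, and -0.081 within replicate 2. Without that array it was -0.34, and without sham replicate 1 it was -0.22. For 6 h minus 2 h the log2 difference was -0.26 ± 0.40 (limma adjusted p = 0.999, interval -1.14 to 0.61). At 2 h the difference from sham was -0.22 ± 0.40, given without a test.

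The other Lamb1 probe sets stayed below the array median everywhere. Probe set 1424113_at had deposited signals of 15.1 and 16.5 at 6 h, 16.7 and 16.5 at 2 h, and 10.5 and 3.3 in sham. All 4 ECS arrays were higher than both sham arrays, with log2 differences of 0.48 at 6 h and 0.59 at 2 h. The direction is opposite to that of 1424114_s_at, and the values are too low to rank above background. Probe set 1451241_at lay between 4.30 and 4.90 in all arrays, with both of these extremes in sham.

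Lamb2 encodes the beta chain typical of neuromuscular junctions, kidney and vessel walls. Its normalized signal was 4.88 and 5.24 at 6 h, 5.08 and 4.84 at 2 h, and 5.07 and 5.60 in sham. The groups overlapped, and the log2 difference from sham was -0.28 at 6 h and -0.38 at 2 h. Only sham replicate 2 reached the array median, so Lamb2 was not tested.

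Among the alpha chains, Lama2 encodes the chain that astrocytes and muscle lay down and whose loss causes a congenital muscular dystrophy in humans. Its deposited signals were 17.6 and 26.3 at 6 h, 23.4 and 20.4 at 2 h, and 28.6 and 48.6 in sham. Normalized, it stood at 5.17 and 5.28 at 6 h, 5.49 and 5.17 at 2 h, and 5.68 and 5.74 in sham. Both sham arrays were higher than all 4 ECS arrays. Lama2 met the signal filter only through these 2 sham arrays, and dropped out when either was left out, so its lower ECS values were in part fixed by the filter. The log2 difference from sham was -0.48 ± 0.44 at 6 h and -0.38 ± 0.44 at 2 h, given without a test. For 6 h minus 2 h it was -0.11 ± 0.44 (limma adjusted p = 0.999, interval -1.08 to 0.87).

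Lama4 and Lama5 encode alpha chains of the endothelial basement membrane. For Lama4, the highest deposited signal of 1424807_at was 10 and that of 1424808_at was 11.3, both far below the array medians. Their log2 differences from sham were 0.24 and -0.011 at 6 h, and 0.36 and 0.34 at 2 h. No statement on Lama4 in the PVN can be drawn from signals this close to the floor.

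The Lama5 probe set 1427009_at was dimmer still, with a highest deposited signal of 7.4. The other, 1427010_s_at, had deposited signals of 11.4 and 35.2 at 6 h, 4.3 and 7.1 at 2 h, and 40.2 and 21.7 in sham. On the log2 scale this gave 4.85 and 5.55 at 6 h, 4.40 and 4.54 at 2 h, and 6.04 and 5.03 in sham. Both 2 h arrays were lower than the other 4, while 6 h and sham overlapped. The log2 difference between 2 h and sham was -1.07, with -1.64 within replicate 1 and -0.49 within replicate 2, or -0.57 without sham replicate 1. With an offset of 1 and of 64 it was -2.08 and -0.45. At 6 h it was -0.33, with opposite signs within the runs (-1.19 and 0.53), and it was 0.021 without ECS 6 h replicate 1 and 0.18 without sham replicate 1. Only sham replicate 1 reached the array median, so this probe set was not tested, and it was singled out after its values were seen.

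**Figure D3:**
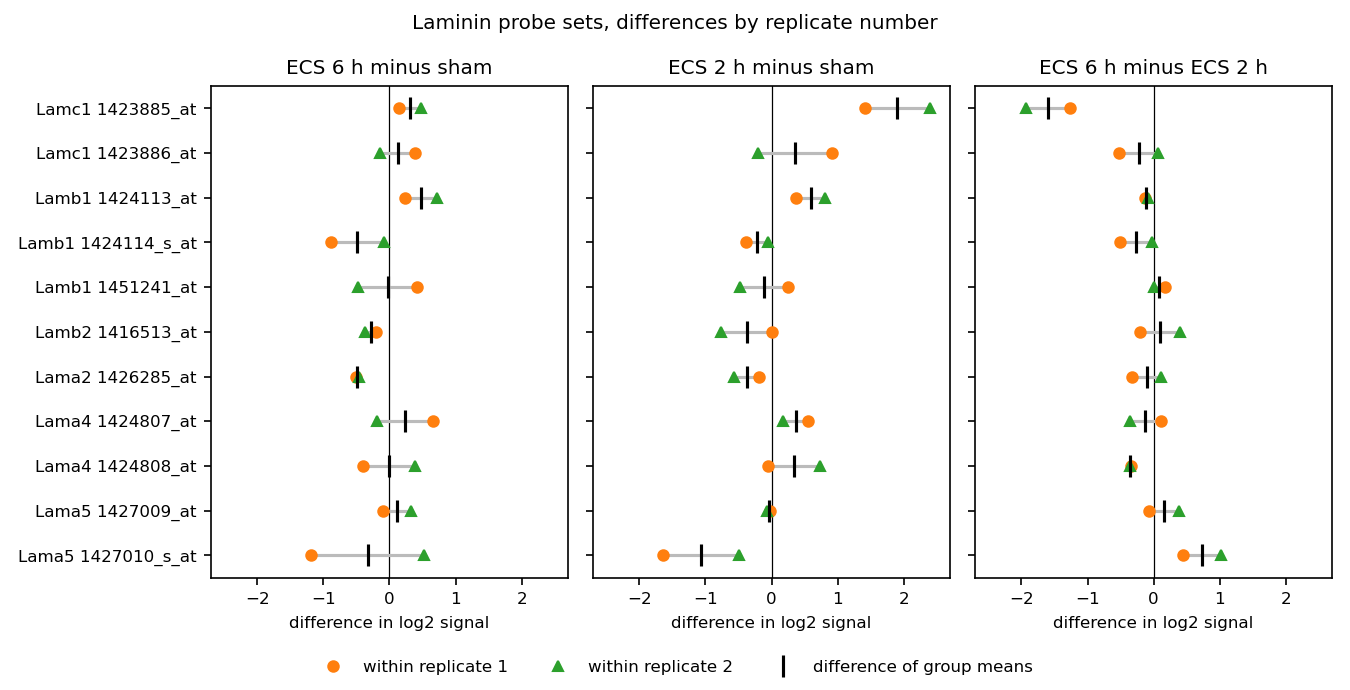
Difference in log2 signal between groups for each laminin probe set, within replicate 1 (orange circles), within replicate 2 (green triangles) and between group means (black bars), for ECS 6 h minus sham, ECS 2 h minus sham and ECS 6 h minus ECS 2 h. In the middle panel Lamc1 1423885_at lies at 1.41 and 2.40, and Lama5 1427010_s_at is the only other probe set beyond 1 in its mean difference, at -1.07.

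Read together, the 11 probe sets moved in both directions. At 2 h 5 were above and 6 below sham, with a median log2 difference of -0.044, against 0.0061 over all 22626 probe sets. Without overlap of the arrays 3 were higher than in sham (Lamc1 1423885_at, Lamb1 1424113_at and Lama4 1424807_at) and 3 lower (that of Lama2 and both of Lama5). Over all probe sets 16.4% were higher and 16% lower in this way, and since the choice used this comparison nothing is read from the count. At 6 h 5 were above and 6 below sham (median -0.011, against 0.0051 over all), and 2 were higher and 2 lower without overlap, where 15.9% and 14.9% of all probe sets were. At 6 h against 2 h 4 were above and 7 below (median -0.11, against 0.00082), with 1 higher and 3 lower without overlap, beside 15.3% and 15.2% of all probe sets. Within the runs 6 of the 11 had opposite signs at 6 h against sham, and 4 at 2 h.

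The tests printed above for Lamb1 1424114_s_at, at 6 h against sham and against 2 h, and for Lama2, at 6 h against 2 h, did not pass. Over the whole table limma called 0 of 12662 probe sets (0%) in each of the 3 comparisons. At an unadjusted p under 0.05 there were 507 (4%) at 2 h against sham, 475 (3.75%) at 6 h against sham and 438 (3.46%) at 6 h against 2 h.

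Of the other laminin chains, Lamb3, Lama3, Lama1 and Lamc3 have probe sets and none was bright enough to be tested. Their deposited signals reached 57.6 for Lamb3, a chain of epithelial laminin, in 2 h replicate 2, and stayed at or below 22.1 in its other arrays. Laminin-related netrins, guidance proteins that share the laminin fold, had 1 tested gene of 5 on the array. This was Ntng1, a membrane-anchored netrin of axons, at a log2 difference of -0.78 ± 0.45 at 6 h and -0.35 ± 0.45 at 2 h. Ntng1 reached the array median in both sham arrays and 2 h replicate 2, but in no 6 h array. Its lower 6 h values were therefore in part fixed by the filter.

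The basement membrane partners of laminin, which crosslink or fill the sheet, had 8 tested genes of 15. At 6 h 3 lay above and 5 below sham (median -0.13), and at 2 h 7 lay above and 1 below (median 0.16). The medians of all tested probe sets were -0.0033 at 6 h and 0.0077 at 2 h. Col4a1, a collagen IV chain, had log2 signals of 6.68 and 7.68 at 6 h, 7.70 and 8.42 at 2 h, and 7.56 and 7.39 in sham. Both 2 h arrays were higher than the other 4, but 2 h replicate 1 was close to a tie with 6 h replicate 2. As deposited, that 2 h array's 156.7 lay below 6 h replicate 2 (206.6) and sham replicate 2 (188.8). The difference of 2 h from sham was 0.58 ± 0.42. It did not pass. Sparc, a matrix protein that binds collagen, was at -0.11 ± 0.14 at 6 h and 0.12 ± 0.14 at 2 h. Agrn, which links laminin to dystroglycan, was at -0.15 ± 0.33 and 0.19 ± 0.33. Fbln1, a matrix glycoprotein, had log2 signals of 4.52 and 6.44 at 6 h, 5.19 and 7.36 at 2 h, and 6.61 and 6.53 in sham. Its difference from sham was -1.09 ± 0.73 at 6 h, or -0.12 without ECS 6 h replicate 1, and -0.30 ± 0.73 at 2 h, or 0.79 without ECS 2 h replicate 1, so single arrays set both values. Hspg2 (perlecan), picked after its values were seen, was at 1.88 ± 0.92 at 2 h through a single array. It had log2 signals of 5.58 and 4.81 at 6 h, 8.59 and 4.88 at 2 h, and 4.90 and 4.81 in sham.

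Integrin receptors of laminin had 3 tested genes of 6 on the array, 2 above and 1 below sham at 6 h (median 0.34) and 3 above at 2 h (median 0.34). Itgb1, the common beta subunit, had log2 signals of 6.46 and 6.05 at 6 h, 6.30 and 6.79 at 2 h, and 6.06 and 5.77 in sham. The 2 h arrays lay above the sham arrays, with a difference of 0.64 ± 0.40. Itga6, an alpha subunit specific for laminins, was at 0.80 ± 0.44 at 6 h and 0.34 ± 0.44 at 2 h, and Itga3, another, at -0.20 ± 0.45 and 0.020 ± 0.45. The list of dystroglycan complex genes and other receptors had 10 tested genes, 7 above and 3 below at 6 h (median 0.14) and 6 above and 4 below at 2 h (median 0.11). Its bright members were Rpsa, which is also a ribosomal protein, at -0.015 ± 0.12 at 6 h and 0.14 ± 0.12 at 2 h, and Sdc4, a syndecan, at 0.17 ± 0.35 and 0.62 ± 0.35. Utrn, which ties the complex to actin, was at 0.11 ± 0.36 and -0.37 ± 0.36.

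Matrix proteases and their inhibitors had 7 tested genes, 3 above and 4 below at 6 h (median -0.0022) and 5 above and 2 below at 2 h (median 0.19). Serpini1, a neuronal inhibitor of plasminogen activators, was at -0.24 ± 0.33 at 6 h and -0.028 ± 0.33 at 2 h. Timp2, an inhibitor of matrix metalloproteases, was at -0.26 ± 0.27 and -0.30 ± 0.27. Over these 6 lists 29 genes were tested, and limma called 0 of 29 in each comparison. At an unadjusted p under 0.05 there was 1 at 6 h against sham, 1 at 2 h against sham and 0 at 6 h against 2 h. Both are proteases named after their values were seen. Adamts1, a secreted metalloprotease, had log2 signals of 7.42 and 6.32 at 6 h, 5.68 and 6.11 at 2 h, and 5.77 and 5.63 in sham, a difference of 1.16 ± 0.45 at 6 h against sham (limma adjusted p = 1.00). Plat, the tissue plasminogen activator, stood at 6.39 and 6.06 at 6 h, 6.33 and 6.90 at 2 h, and 4.78 and 5.98 in sham, a difference of 1.23 ± 0.48 at 2 h against sham (limma adjusted p = 1.00).

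**Figure D4:**
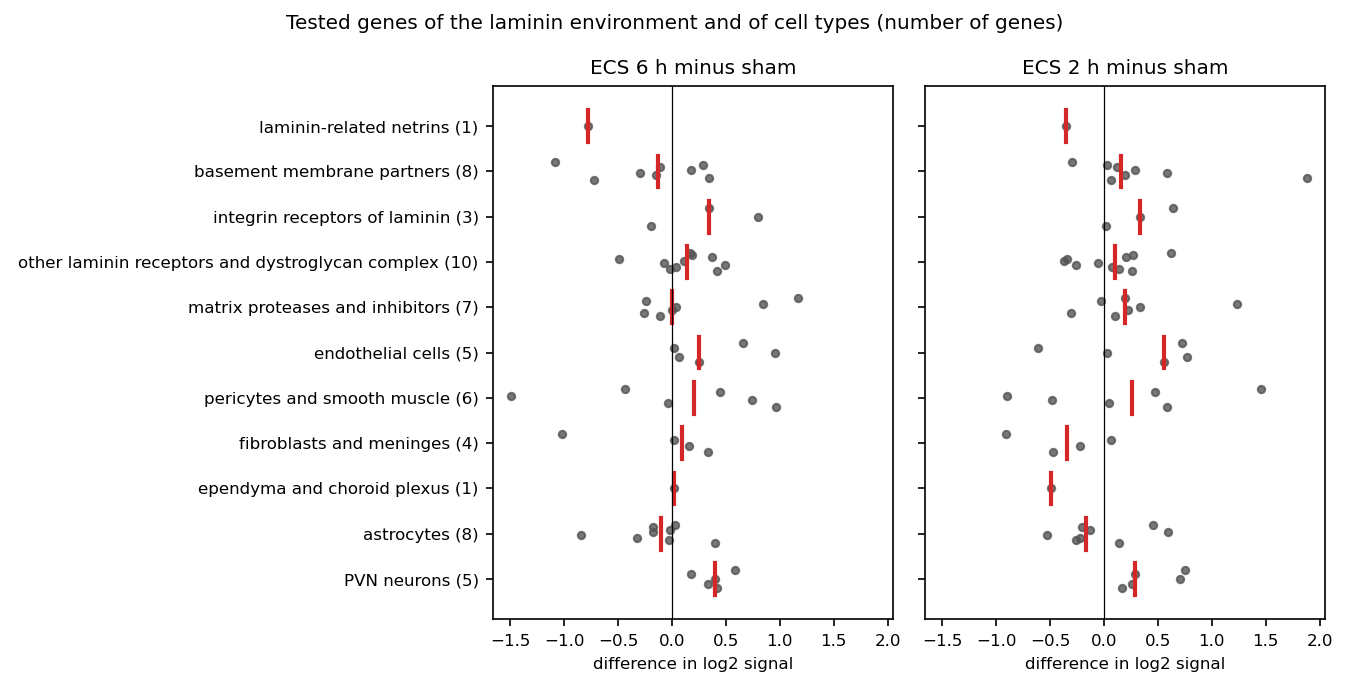
Difference in log2 signal from sham for the tested genes of each list (grey points) with the list median (red bar), at ECS 6 h and ECS 2 h, with the number of genes in brackets. The right-most point at 2 h is Hspg2, at 1.88, and that of the proteases and inhibitors at 2 h is Plat, at 1.23.

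Markers of the cells that make laminins are given beside these values, and their part in the Lamc1 values was not tested. The summed normalized signal of 10 pericyte and smooth muscle markers ran from 952 to 1189 at 6 h, from 1290 to 1377 at 2 h and from 979 to 1234 in sham. Of these markers 3 were below the median in every array, namely Anpep, Tagln and Myh11. Vtn, a pericyte marker in brain, had log2 signals of 6.43 and 6.10 at 6 h, 8.87 and 7.45 at 2 h, and 7.73 and 5.67 in sham. Its 2 h and sham arrays overlapped, and the high sum of 2 h replicate 1 rested on this gene. Pdgfrb, the pericyte receptor of platelet-derived growth factor, was at 6.49 and 6.32, 6.28 and 5.77, and 5.40 and 5.47 in the same groups. Of the 6 tested markers of this list 4 lay above and 2 below sham at 2 h. Above without overlap of the arrays were Pdgfrb, at a log2 difference of 0.59 ± 0.40, and Kcnj8, at 0.48 ± 0.50. Both met the signal filter only through ECS arrays, so their higher ECS values were in part fixed by the filter. The 2 below, named after their values were seen, were Acta2, an actin of smooth muscle, and Cspg4 (NG2). Acta2 was at a log2 difference of -0.90 ± 0.49 without overlap of the arrays, and Cspg4 at -0.48 ± 0.58. Acta2 met the signal filter only through the 2 sham arrays, so its lower ECS values were in part fixed by the filter. Rgs5, a pericyte regulator of G proteins and the brightest marker of the list, differed by 0.043 ± 0.31. At 6 h 3 lay above and 3 below sham.

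Endothelial markers, 9 on the array, summed to 393 to 534 at 6 h, 357 to 502 at 2 h and 333 to 382 in sham, with Cdh5 and Vwf below the median throughout. Astrocyte markers, 8 on the array and all tested, summed to 3118 to 3247 at 6 h, 3369 to 3495 at 2 h and 3256 to 3682 in sham. Fibroblast and meningeal markers, 8 on the array, summed to 143 to 213 at 6 h, 139 to 154 at 2 h and 186 to 216 in sham, with Dcn and Lum below the median throughout. Of 5 markers of ependyma and choroid plexus 4 were below the median in every array, Ttr among them, and their sums were 114 to 154 at 6 h, 90.5 to 91.9 at 2 h and 100 to 145 in sham. No marker of these lists was at a deposited value of 0 in every array. PVN neuron markers, 6 on the array, summed to 5099 to 6092 at 6 h, 5134 to 5862 at 2 h and 4215 to 4273 in sham, with Otp below the median throughout. This sum is on a linear scale and follows its brightest genes. These were Oxt, Avp, Trh and Sst, with mean log2 signals of 11.03, 9.98, 9.97 and 9.31, against 8.35 for Sim1. A higher sum is therefore not a count of neurons.

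The genes whose profile over the 6 arrays was most like that of Lamc1 1423885_at were taken from 11656 tested probe sets as a description. They were C1galt1c1, a chaperone of a glycosyltransferase (Pearson r = 0.984), Gadd45b, a stress-inducible gene (0.978), Chodl, a membrane lectin (0.975), Gem, a small GTPase (0.974), and Nek6, a mitotic kinase (0.974). The points are the same 6 arrays that chose Lamc1, and with so few of them 70 probe sets reached an r of at least 0.9. Chodl had log2 signals of 5.10 and 5.02 at 6 h, 6.35 and 6.48 at 2 h, and 5.12 and 5.02 in sham. It met the signal filter only through its 2 h arrays, so its higher 2 h values were in part fixed by the filter. Gem stood at 5.64 and 5.52 at 6 h, 6.46 and 6.66 at 2 h, and 5.74 and 5.10 in sham. C1galt1c1 spanned less, at 8.07 and 7.95, 8.32 and 8.39, and 7.97 and 7.89 in the same order. In each of these genes the 2 h arrays were higher than the other 4. Of the other laminin probe sets only the tested ones could appear here. These were Lamc1 1423886_at (r = 0.24), Lamb1 1424114_s_at (-0.041) and that of Lama2 (-0.48), and none was among the closest. The untested chains were left out beforehand, so their absence says nothing.

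**Figure D5:**
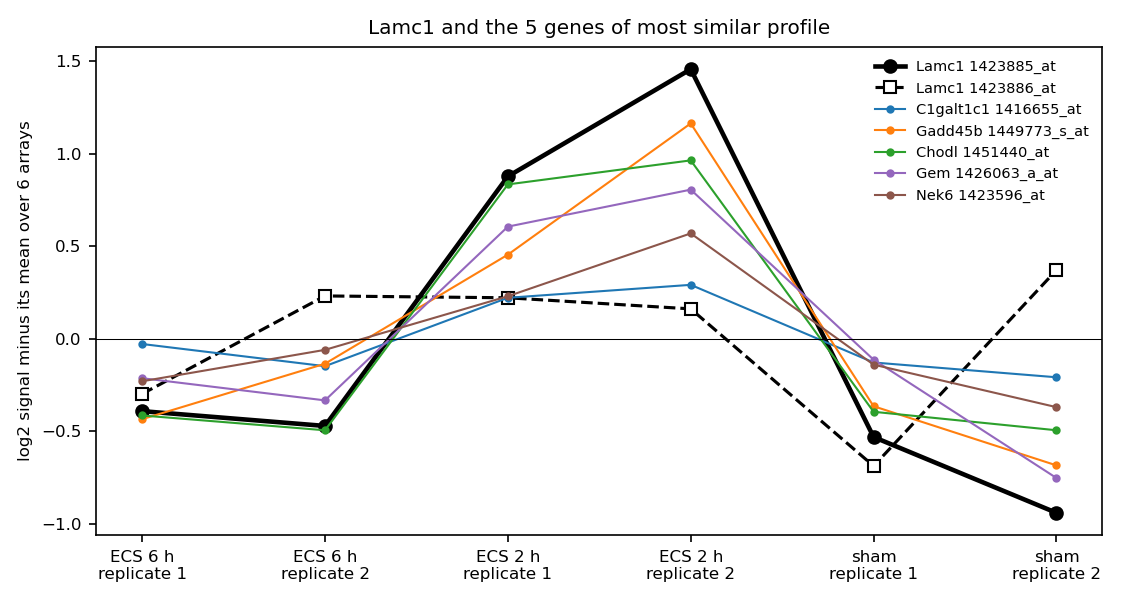
Log2 signal of each array minus the probe set's own mean over 6 arrays, for ECS 6 h, ECS 2 h and sham from left to right; the lines only guide the eye. Lamc1 1423885_at (thick line) and the 5 genes of most similar profile peak in the 2 h arrays, whereas Lamc1 1423886_at (dashed line) has both its lowest and its highest value in sham.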

How the data were processed

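The deposited intensity values, one per probe set on a linear scale, were made by the authors with MAS5, per the submitters' processing notes, with the software version not given in the sources used here. Per the labels' protocols, 2 ng of RNA was amplified with Ovation Pico WTA. Because array medians differed, values were quantile normalized. After removal of 64 control probe sets, 22626 remained, of which 12662 (56%) were at or above their array's median in at least 2 of 6 arrays and were tested with limma 3.58.1 in R 4.3.3 on log2(value + 16), with a mean per group, an intensity trend and Benjamini-Hochberg adjustment at 0.05, two-sided. Symbols came from the array annotation. The procedure was tested on simulated data.

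Members and lists were chosen with earlier results of these data known. Named genes are all laminin probe sets, up to 4 genes per list of highest mean signal, and the 5 closest profiles, and others are said to be chosen after their values were seen. A list gene was represented by its brightest probe set. Same-numbered arrays deviated together from their group means, with correlations of 0.15, 0.18 and 0.23 between pairs of groups, and the study ran its arrays 2 times, so the replicate number as a block was an alternative. Others covered the offset, scaling, filter, variance trend, array weights, only the compared arrays, and leaving out each array. Nothing says that pools of a group were processed separately beyond the 2 runs. The 2 pools of a group are read as differing in run, so p-values without the block measure the spread between pools and runs together.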

Additional observations from a re-analysis of the deposited data

Results flagged for a closer look

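In a pair of genes every 2 h array lay on one side of the sham arrays and every 6 h array on the other. The share of all probe sets with this pattern is not given here, so nothing is read from the count. Slc1a3, the astrocyte glutamate transporter GLAST, had log2 differences from sham of -0.171 at 6 h and 0.589 at 2 h, and the difference of 6 h from 2 h was -0.761 (limma adjusted p = 0.999). Lamb3 had differences of -0.376 at 6 h and 0.57 at 2 h. Its 2 h replicate 1 was close to a tie with sham, at a log2 signal of 5.04 against 5.01 and 5.04. As deposited, that array's 13.8 lay below both sham values (13.9 and 22.1). The 2 h difference came from replicate 2, deposited at 57.6. Lamb3 was below the signal filter, and without a filter its difference of 6 h from 2 h was -0.946 (limma adjusted p = 0.999).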

How the results depend on the processing

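The count of called probe sets at 2 h against sham was 0, and it was 1 with values as deposited, 1 with median subtraction, 2 with array weights, 4 with the replicate block and 12 in a fit to the 4 arrays compared. Leaving out single arrays gave 0 to 10 calls at 2 h against sham, 0 to 6 at 6 h against sham and 0 to 3 at 6 h against 2 h, where the highest counts came without a 6 h array. The cause was not tested. The replicate block moved the counts at 6 h against sham and at 6 h against 2 h by 0, and left Lamb1 1424114_s_at and Lama2 without a call. Of 33 laminin differences, 17 kept their sign under all alternatives. Without single arrays, Lama2 at 6 h against 2 h ran from -0.264 (without ECS 2 h replicate 2) to 0.0553 (without ECS 2 h replicate 1). The filter at the 75th percentile left 1 of the 11 probe sets, Lamc1 1423885_at. Signals near the floor limit most chains.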
